A study of Mus musculus with 2 samples.

Results

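The spots described here were the 123 positions of a mouse brain section, of 2485 tissue spots in all, that held at least 3 UMIs (unique molecular identifiers, each standing for 1 captured ligation product) of Tph2, the neuronal tryptophan hydroxylase that starts serotonin synthesis. Tissue spots were those marked as tissue in the position list filed under the wild-type sample with at least 500 UMIs. The members were thus selected on their Tph2 count in these same data, so its level is a description and no finding, and the members were proposed with other results of these data in view. The study profiled brains of 6-month-old male mice, 1 sample carrying G2-3 (A53T alpha-synuclein) and 1 wild type, on Visium CytAssist slides, which read RNA through gene-specific probe pairs on an array of barcoded spots. The labels do not say which promoter drives the A53T protein or in which cells. The count matrices, spot lists and gene lists filed under both genotypes held the same content, and only the lists that mark which positions carry tissue differed. The data were therefore treated as 1 library, no genotype was assigned to it, and no comparison between G2-3 and wild type was made. A spot is a small region that can hold several cells or parts of cells, so a higher level cannot be told apart from more cells of a type in the spot. With 1 section there are no replicates. Every interval given is a 95% interval for counting error only, spots of the section are not replicates, and no p-value is reported.

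Serotonin neurons of the raphe nuclei hydroxylate tryptophan with Tph2, using tetrahydrobiopterin as a cofactor, and complete the synthesis with the decarboxylase Ddc. The vesicular monoamine transporter Slc18a2 (VMAT2) loads serotonin into vesicles, the plasma membrane transporter Slc6a4 (SERT) takes it back up, and the monoamine oxidases break it down. Slc18a2, Ddc and the cofactor enzymes are shared with dopamine neurons of the ventral midbrain, whereas Slc6a4 and Tph2 mark serotonin neurons in the adult brain. The raphe lies along the midline of the midbrain, pons and medulla and sends axons to nearly the whole brain.

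To show the regions that lie upstream of genes found together in these spots, the 250 bases before the annotated start of Tph2 and of 4 genes that accompanied it are given from RefSeq on GRCm38.p6, on the strand of each gene. All 5 genes had an entry in the promoter table. Capitals mark matches on either strand to GGAA (the core bound by ETS factors, the family of the serotonergic factor Fev), AGATAA (bound by GATA factors) and TATAAA (the TATA box), and no base was shared by matches of different motifs.
Tph2, chr10:115185023-115185272, minus strand: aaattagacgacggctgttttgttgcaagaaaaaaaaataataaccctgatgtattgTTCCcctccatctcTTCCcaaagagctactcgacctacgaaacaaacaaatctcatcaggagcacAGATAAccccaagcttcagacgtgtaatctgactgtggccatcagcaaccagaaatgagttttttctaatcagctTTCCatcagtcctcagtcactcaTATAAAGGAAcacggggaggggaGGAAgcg
Slc6a4, chr11:76998347-76998596, plus strand: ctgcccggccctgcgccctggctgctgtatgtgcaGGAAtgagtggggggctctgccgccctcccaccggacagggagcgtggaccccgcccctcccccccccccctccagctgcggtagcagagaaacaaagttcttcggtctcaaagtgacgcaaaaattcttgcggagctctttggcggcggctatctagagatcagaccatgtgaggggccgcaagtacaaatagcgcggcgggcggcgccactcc
Slc18a2, chr19:59260628-59260877, plus strand: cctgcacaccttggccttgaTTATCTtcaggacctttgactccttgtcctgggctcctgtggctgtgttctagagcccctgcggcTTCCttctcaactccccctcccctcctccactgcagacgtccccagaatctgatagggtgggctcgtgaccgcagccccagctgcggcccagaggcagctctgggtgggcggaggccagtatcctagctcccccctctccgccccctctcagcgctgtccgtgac
Gch1, chr14:47189414-47189663, minus strand: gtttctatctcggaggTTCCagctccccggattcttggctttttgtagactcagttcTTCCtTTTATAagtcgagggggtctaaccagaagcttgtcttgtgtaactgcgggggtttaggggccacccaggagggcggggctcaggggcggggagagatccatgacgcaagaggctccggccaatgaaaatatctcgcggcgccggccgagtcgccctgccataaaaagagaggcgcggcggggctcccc
Gchfr, chr2:119167538-119167787, plus strand: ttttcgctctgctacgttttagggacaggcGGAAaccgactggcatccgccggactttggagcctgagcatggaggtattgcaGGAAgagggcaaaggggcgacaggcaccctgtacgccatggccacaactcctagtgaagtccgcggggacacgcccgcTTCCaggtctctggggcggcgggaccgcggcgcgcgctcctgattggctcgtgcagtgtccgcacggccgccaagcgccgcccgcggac
GGAA was present in 5 of 5 windows, as in 93.4% of the 32851 promoter windows of this length in the table. AGATAA was found in the windows of Tph2 and Slc18a2, against 9.99% of all windows, and TATAAA in those of Tph2 and Gch1, against 12.4%. In Tph2 the TATAAA match lay 30 bases before the start and the nearest GGAA match 7 bases before it. These matches describe letters and not binding sites.

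The 123 spots made up 4.95% of tissue spots and 3.35% of tissue UMIs. They held 1390 to 17438 UMIs each (median 5223) and 3 to 86 Tph2 UMIs each (median 7). Together they carried 1478 of the 1589 Tph2 UMIs in tissue, or 93.0%. At the threshold, 20 members had exactly 3 Tph2 UMIs, while 16 tissue spots with 2 and 79 with 1 were left outside. Members lay between array rows 45 and 64 and array columns 20 and 57, and 121 of the 123 touched another member. Of 5 contiguous groups, the largest held 114 spots (92.7%), and the others held 4, 3, 1 and 1. Of the 95 spots with 1 or 2 Tph2 UMIs, 55 were within 2 grid steps of a member. The other list of tissue positions, filed under G2-3, also marked all 123 as tissue.

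**Figure D1:**
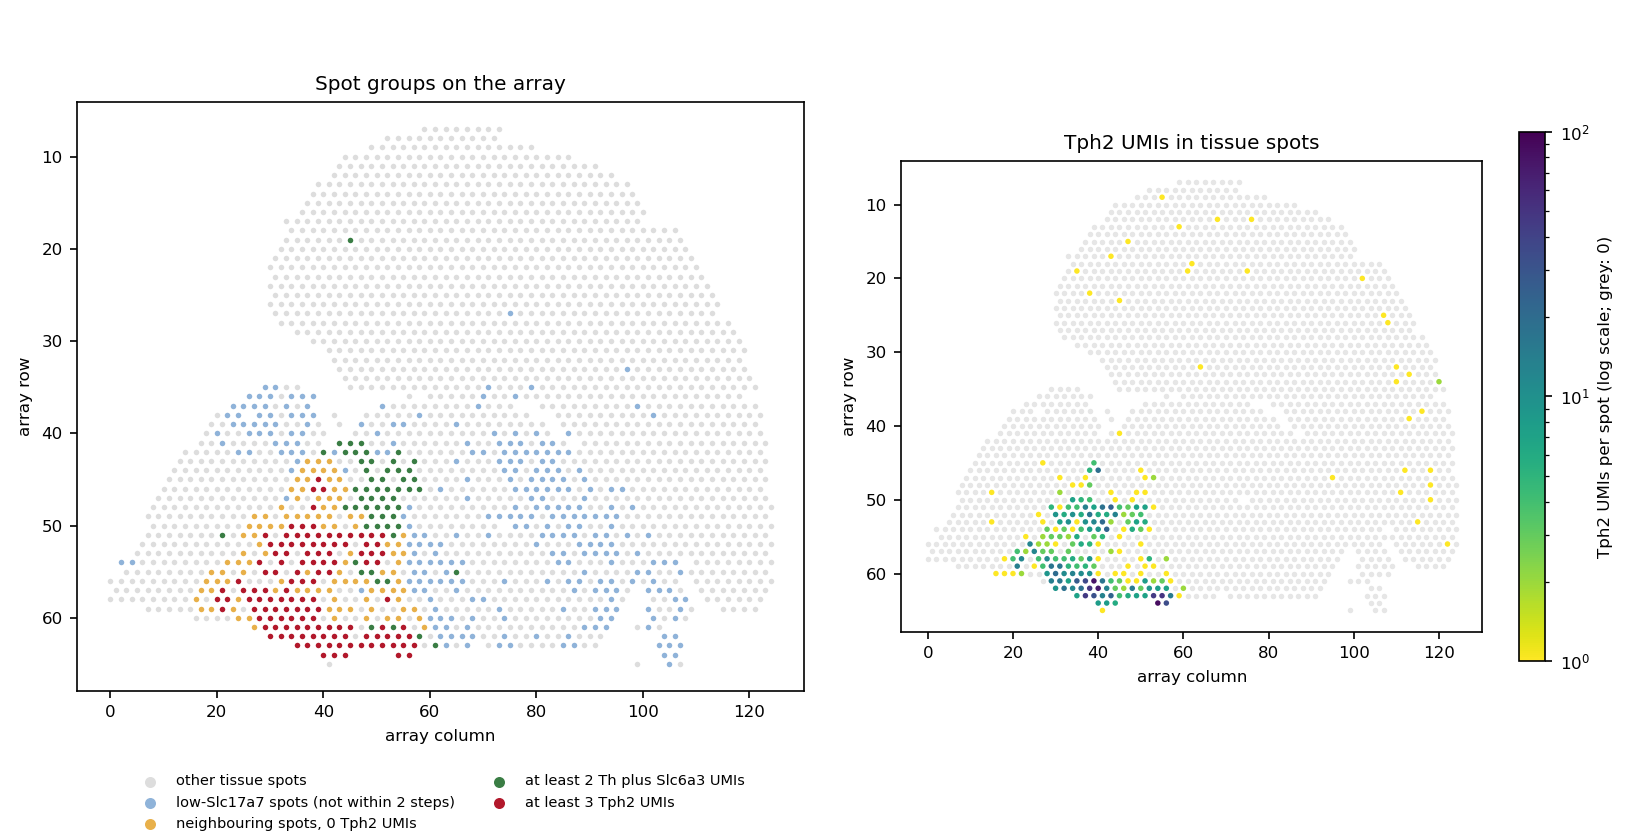
Array position of spots by row and column: on the left the groups compared (a spot in several groups is drawn once), on the right Tph2 UMIs per tissue spot on a log colour scale. The 123 members lie in 1 stretch of the section, between rows 45 and 64, and single Tph2 UMIs are scattered elsewhere.

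Members were set against 3 groups of spots. The first was 326 tissue spots with 0 Tph2 UMIs and fewer than 1 UMI per 10000 of Slc17a7, the vesicular glutamate transporter of cortical and hippocampal excitatory neurons; these low-Slc17a7 spots had 1183 to 14705 UMIs each (median 4599). The second was 113 neighbouring spots within 2 grid steps of a member and with 0 Tph2 UMIs (median 4389 UMIs). The third was 57 spots with at least 2 UMIs of Th plus Slc6a3, the dopamine-synthesis enzyme and the dopamine transporter, and fewer than 3 Tph2 UMIs (median 5418 UMIs). These groups share spots: 48 low-Slc17a7 spots were also neighbours, and 9 Th or Slc6a3 spots fell in each of the other groups. The 3 comparisons also share the members, so their results are not independent. For each group the UMIs of all its spots were added up and scaled to CPM (counts per 1000000 UMIs), and a gene was called higher or lower at a 2-fold ratio if it had at least 50 counts in both sums together. Against low-Slc17a7 spots, 65 of 7253 genes (0.896%) were at least 2-fold higher in members and 143 (1.97%) at least 2-fold lower, leaving out Tph2 and Slc17a7, which the rules used. With members restricted to the 73 under 1 Slc17a7 UMI per 10000, a restriction added after seeing the data, the counts were 82 of 6784 (1.21%) and 234 (3.45%). Because a gene can reach 50 counts through members alone, the minimum favours genes that are high in members. Levels were not compared between genes, because each gene has its own probes.

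The genes of serotonin handling were higher in the members. Of 7 genes listed for serotonin synthesis, transport and breakdown besides Tph2, 5 had enough counts. All 5 had higher CPM in members, 4 at least 2-fold, with a median log2 ratio of 3.56 against 0.00 over all genes tested. The 4 genes past 2-fold each reached the minimum count through members alone, and the list was drawn up with earlier results of these data known. How many genes of the list passed is thus a description and no support.

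Slc18a2, the vesicular transporter, had 358 UMIs in members (509 CPM, interval 458 to 565) and 23 in low-Slc17a7 spots (14.6 CPM, interval 9.28 to 22.0), a 34.8-fold difference (log2 5.12, interval 4.51 to 5.80). Members carried 0 to 16 Slc18a2 UMIs each (median 2), and the highest low-Slc17a7 spot had 4, so the ranges overlapped. A further reference was the 1443 Slc17a7-rich spots, tissue spots outside the members with at least 10 Slc17a7 UMIs per 10000. They held 0 to 2 Tph2 UMIs each and had a higher median depth of 9682 UMIs. Of the 123 members, 102 (82.9%, exact binomial interval 75.1 to 89.1) had at least 1 Slc18a2 UMI, against 14 of the 1443 Slc17a7-rich spots (0.970%). When every spot was thinned to 2000 UMIs, which left out 3 members, the shares were 53.3% and 0.351%.

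Slc6a4, the serotonin transporter, had 82 UMIs in members (117 CPM, interval 92.7 to 145) and 1 UMI in low-Slc17a7 spots (log2 7.52, interval 5.0 to 12.84). It was found in 50 of 123 members, with at most 5 UMIs in a spot, and in 3 of 1443 Slc17a7-rich spots (0.208%). Members held 90.1% of the Slc6a4 UMIs of the tissue. Ddc, the decarboxylase, had 58 UMIs in members and 11 in low-Slc17a7 spots (log2 3.56, interval 2.61 to 4.64), and 14 of the 58 came from 1 spot. The type B oxidase Maob had 71 and 27 UMIs (log2 2.55, interval 1.90 to 3.25). Its relative Maoa, at 25 and 32 UMIs, was at log2 0.80 with an interval of -0.01 to 1.60, which takes in 0.

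Among 8 genes of tetrahydrobiopterin, the cofactor that Tph2 and tyrosine hydroxylase need, 7 had enough counts and 3 were at least 2-fold higher in members. The median log2 ratio of the 7 was 0.94. Gch1, the GTP cyclohydrolase that starts cofactor synthesis, had 131 UMIs in members and 3 in low-Slc17a7 spots (log2 6.61, interval 5.03 to 8.90). Gchfr, which binds this enzyme and mediates its feedback regulation, had 159 and 10 UMIs (log2 5.15, interval 4.23 to 6.24). Both were present in about the same number of members, Gch1 in 64 and Gchfr in 70, with up to 19 UMIs of each in a single spot. The next enzyme, Pts, was at 39 and 43 UMIs (log2 1.02, interval 0.35 to 1.68). Spr, which completes the synthesis, was at log2 0.04 (interval -0.38 to 0.44), and the recycling enzyme Qdpr, at 396 and 879 UMIs, was at log2 0.01 (interval -0.17 to 0.18). The largest ratios in this list were thus those of its first enzyme and that enzyme's regulator. Gch1 and Gchfr were chosen as markers of these spots with earlier results of these data known. Both also reached the minimum count through members alone, so their place in the list is a description and no finding.

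Members were also set against the 72 low-Slc17a7 spots from their own stretch of the array (rows from 45, columns up to 60; chosen after seeing the data), 46 of which were neighbours. The ratios were all above 2-fold there, at log2 5.23 for Slc6a4, 4.91 for Gch1, 3.60 for Gchfr, 3.27 for Slc18a2, 2.41 for Ddc and 2.70 for Maob. Of these only Maob had a larger ratio than against all low-Slc17a7 spots.

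Considered together in single spots, 28 of the 123 members held UMIs of all 4 of Slc18a2, Slc6a4, Gch1 and Gchfr, and 13 held none of them. Among the 326 low-Slc17a7 spots none held 3 or 4 of these genes, 3 held 2 and 299 held none. One neighbouring spot and 1 Th or Slc6a3 spot held all 4.

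Of 11 transcription factors listed for serotonin neurons, 10 were in the gene panel; Fev is not analysed here. Only 4 had 50 counts, and 2 of these were at least 2-fold higher in members. Gata2, a factor needed for serotonin neuron development in the rostral hindbrain, had 48 and 43 UMIs (log2 1.32, interval 0.69 to 1.95), and Gata3 had 78 and 109 (log2 0.68, interval 0.24 to 1.11). En1, a homeobox gene of the midbrain and anterior hindbrain, had 57 and 47 UMIs (log2 1.44, interval 0.85 to 2.03). Against the low-Slc17a7 spots of the same stretch, En1 was at log2 -0.29 (interval -0.94 to 0.38) and Gata2 at 0.76 (interval -0.15 to 1.77). Lmx1b, a LIM homeobox factor that serotonin and midbrain dopamine neurons both use, was short of 50 counts, with 37 UMIs in members and 5 in low-Slc17a7 spots (log2 4.05), and members held 64.9% of its tissue UMIs.

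Of 14 serotonin receptor genes, all in the panel, only Htr1a and Htr4 had 50 counts in this comparison. Htr1a, the inhibitory autoreceptor on serotonin cell bodies, had 65 UMIs in 44 members and 35 UMIs in low-Slc17a7 spots (log2 2.05, interval 1.44 to 2.69). It was no marker of these spots alone, since 296 of 1443 Slc17a7-rich spots (20.5%) also held it, against 35.8% of members; after thinning the shares were 4.22% and 16.7%. Htr4 had 13 and 51 UMIs (log2 -0.81, interval -1.82 to 0.09). Of 18 other receptors known on raphe neurons, 7 were tested and 1 was at least 2-fold higher. This was Adra1b, an alpha-1 adrenergic receptor, at 56 and 34 UMIs (log2 1.88, interval 1.24 to 2.54). The CRH receptor Crhr2 had 7 UMIs in 7 members and 0 in low-Slc17a7 spots, too few to be called.

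The third vesicular glutamate transporter, Slc17a8 (VGLUT3), which some serotonin neurons use to release glutamate, had 50 UMIs in 31 members and none in the 326 low-Slc17a7 spots. With the comparator set to a floor of 3 counts over the group, its CPM was at least 37.2-fold higher in members. It was found in 8 of 1443 Slc17a7-rich spots (0.554%), and members held 76.9% of its tissue UMIs. The 31 members included 28 in rows 58 to 64 and none of the 17 members with 2 or more Th plus Slc6a3 UMIs. The transporter of subcortical glutamate neurons, Slc17a6 (VGLUT2), was lower in members, at 16 and 116 UMIs (log2 -1.70, interval -2.55 to -0.94), and Gad2, a GABA-synthesis enzyme, was at log2 -0.57 (interval -0.93 to -0.22). Against the same stretch of the array, Slc17a6 was at -0.93 (interval -2.06 to 0.21). For the GABA genes the ratios were further below 0 there, with Gad2 at -0.97 (interval -1.42 to -0.51) and the vesicular transporter Slc32a1 at -1.60 (interval -2.44 to -0.78), the latter at -0.51 (interval -1.25 to 0.19) against all low-Slc17a7 spots.

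Several genes outside the serotonin lists were among the 15 ranked highest by the lower end of the interval. Cryba2, a beta-crystallin, had 52 UMIs in 34 members and 6 in low-Slc17a7 spots (log2 4.27, interval 3.06 to 5.79), and members held 66.7% of its tissue UMIs. In RefSeq on GRCm38.p6 it lies at chr1:74889934-74898842, next to Fev at chr1:74881501-74885473, with 4460 bases and 0 annotated genes between them. Irs4, an adaptor of insulin and growth factor receptors, had 56 and 6 UMIs (log2 4.38, interval 3.17 to 5.89), and Vwa5b1 had 48 and 8 (log2 3.74, interval 2.65 to 5.04). Cited1, a transcriptional coregulator, had 115 and 53 UMIs (log2 2.28, interval 1.80 to 2.77), Ighm, the immunoglobulin mu chain, 72 and 27 (log2 2.57, interval 1.92 to 3.27), and the copine Cpne7 199 and 97 (log2 2.20, interval 1.84 to 2.56). Cpne7 was also found in 880 of 1443 Slc17a7-rich spots, so its UMIs were not limited to these spots. Against comparators of the same stretch, Irs4 was at 3.1, Vwa5b1 at 2.14 and Cryba2 at 4.58.

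Some genes of peptide release were higher as well. Of 16 dense-core vesicle and peptide-processing genes, 15 were tested, 4 were at least 2-fold higher and 0 at least 2-fold lower, with a median log2 ratio of 0.25. These were Pcsk1, a prohormone convertase (62 and 26 UMIs, log2 2.41, interval 1.73 to 3.13), and the granin-family genes Scg2 (log2 1.29, interval 0.88 to 1.70), Chgb (log2 1.22, interval 1.00 to 1.44) and Vgf (log2 1.02, interval 0.83 to 1.22). Against low-Slc17a7 spots from the same stretch, Scg2 and Vgf came to 0.52 and 0.51. Of 22 neuropeptides and modifiers, 9 were tested, 0 were at least 2-fold higher and 3 at least 2-fold lower. The 3 were Cartpt (19 and 1126 UMIs, log2 -4.73), Tac1 (8 and 117 UMIs, log2 -2.71) and Cck (26 and 206 UMIs, log2 -1.83). None of the 3 was lower against comparators from the same stretch of the array, where all had fewer than 50 counts and intervals that take in 0. Cartpt was at 1.12 (19 and 4 UMIs, interval -0.46 to 3.14), Tac1 at 0.88 (8 and 2 UMIs, interval -1.45 to 4.15) and Cck at 0.41 (26 and 9 UMIs, interval -0.73 to 1.69). Of the 1126 Cartpt UMIs of the comparator group, 4 came from its spots in that stretch.

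Of the 10 lowest genes, Myoc, an extracellular glycoprotein, had 3 UMIs in members and 353 in low-Slc17a7 spots (log2 -5.72, interval -8.00 to -4.16). The homeobox genes Lhx9 (0 and 77 UMIs, at least 11.5-fold lower), Six3 (2 and 104) and Lhx2 (2 and 89), which pattern the forebrain and midbrain, had few or no UMIs in members. They were also scarce in the low-Slc17a7 spots of the same stretch, at 0 UMIs for Lhx9, 2 for Six3 and 3 for Lhx2. Gfap, an astrocyte filament, had 53 and 756 UMIs (log2 -2.68, interval -3.11 to -2.27), with -1.01 against comparators of the same stretch. Ptgds (log2 -2.02) and Mgp (log2 -2.55), both expressed in meninges and vessels, were lower as well. Tcf7l2 (log2 -3.03) and Nrgn (log2 -2.69) were also among the lowest, but came to -0.12 and 0.014 against the same stretch, with 5 UMIs of each in those comparators and intervals that take in 0.

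Sncg, the gamma-synuclein gene, which is abundant in monoaminergic neurons, had 354 UMIs in 102 members and 289 in low-Slc17a7 spots (log2 1.45, interval 1.22 to 1.68; 0.70 against the same stretch). Its relative Sncb was at 0.00 (interval -0.19 to 0.18), but at 0.58 (interval 0.26 to 0.90) against the same stretch, where the interval of Sncg was 0.38 to 1.04. None of the 14 tested pacemaking and potassium channel genes, of 20 listed, was 2-fold different. Of 5 neurofilament genes 4 were tested and none was 2-fold different, with Nefl at -0.42 and Nefm at -0.40.

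**Figure D2:**
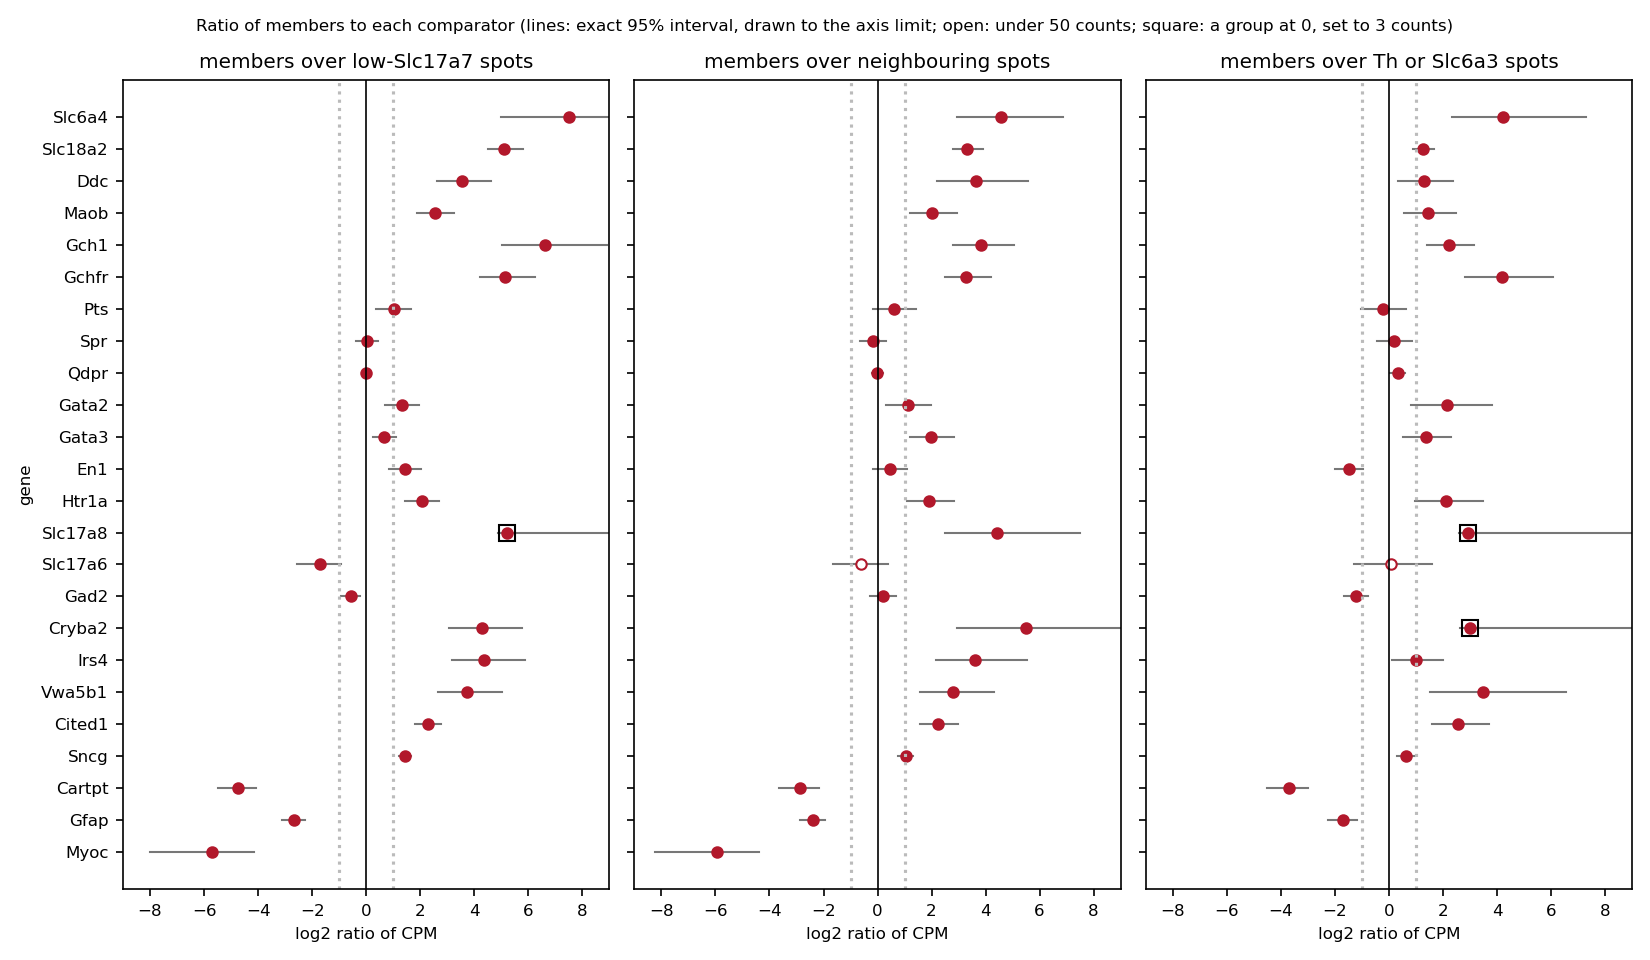
Log2 ratio of CPM in members over each comparator group for 24 genes, with exact 95% intervals of counting error; dotted lines mark 2-fold, open points fewer than 50 counts, squares a group at 0 set to 3 counts, and Myoc has too few counts for the right panel. Slc6a4, Gch1, Gchfr and Cryba2 lie to the right in all 3 panels, whereas En1 is right of 0 against low-Slc17a7 spots (1.44, but -0.29 against those of the same stretch) and left of it against Th or Slc6a3 spots (-1.47).

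Levels of Slc18a2, Slc6a4 and Gch1 rose with the number of Tph2 UMIs of a spot, on both sides of the threshold. Slc18a2 was at 4.05 CPM in the 2267 tissue spots with 0 Tph2 UMIs, 58.3 with 1, 177 with 2, 256 with 3 to 5, 540 with 6 to 10 and 665 with over 10. Slc6a4 went from 0.154 CPM with 0 and 7.28 with 1 to 31.9 with 3 to 5, 124 with 6 to 10 and 170 with over 10. Gch1 was at 5.03, 20.4, 37.4, 63.9, 161 and 282 CPM over the same 6 classes. The increase was not shared by every gene: Htr1a was at 105 CPM with 3 to 5 Tph2 UMIs, 62.1 with 6 to 10 and 99.0 with over 10, with overlapping intervals. Lmx1b was nearly level over the 3 classes of members, at 50.2, 49.7 and 55.7 CPM. Irs4 was likewise level at 82.1, 68.3 and 83.6 CPM. Maob was at 20.8 CPM with 0 Tph2 UMIs and 18.3 with 3 to 5, against 124 with 6 to 10 and 145 with over 10. Gchfr was at 164 CPM with 3 to 5, 168 with 6 to 10 and 297 with over 10. The spots of 1 Tph2 UMI, outside the members, held 72 Slc6a3 and 44 Th UMIs in 79 spots, found in 12 and 13 of them respectively. Depth also differed between classes, with a median of 4281 UMIs in the 44 members of 3 to 5 Tph2 UMIs, and its part in these levels was not tested.

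**Figure D3:**
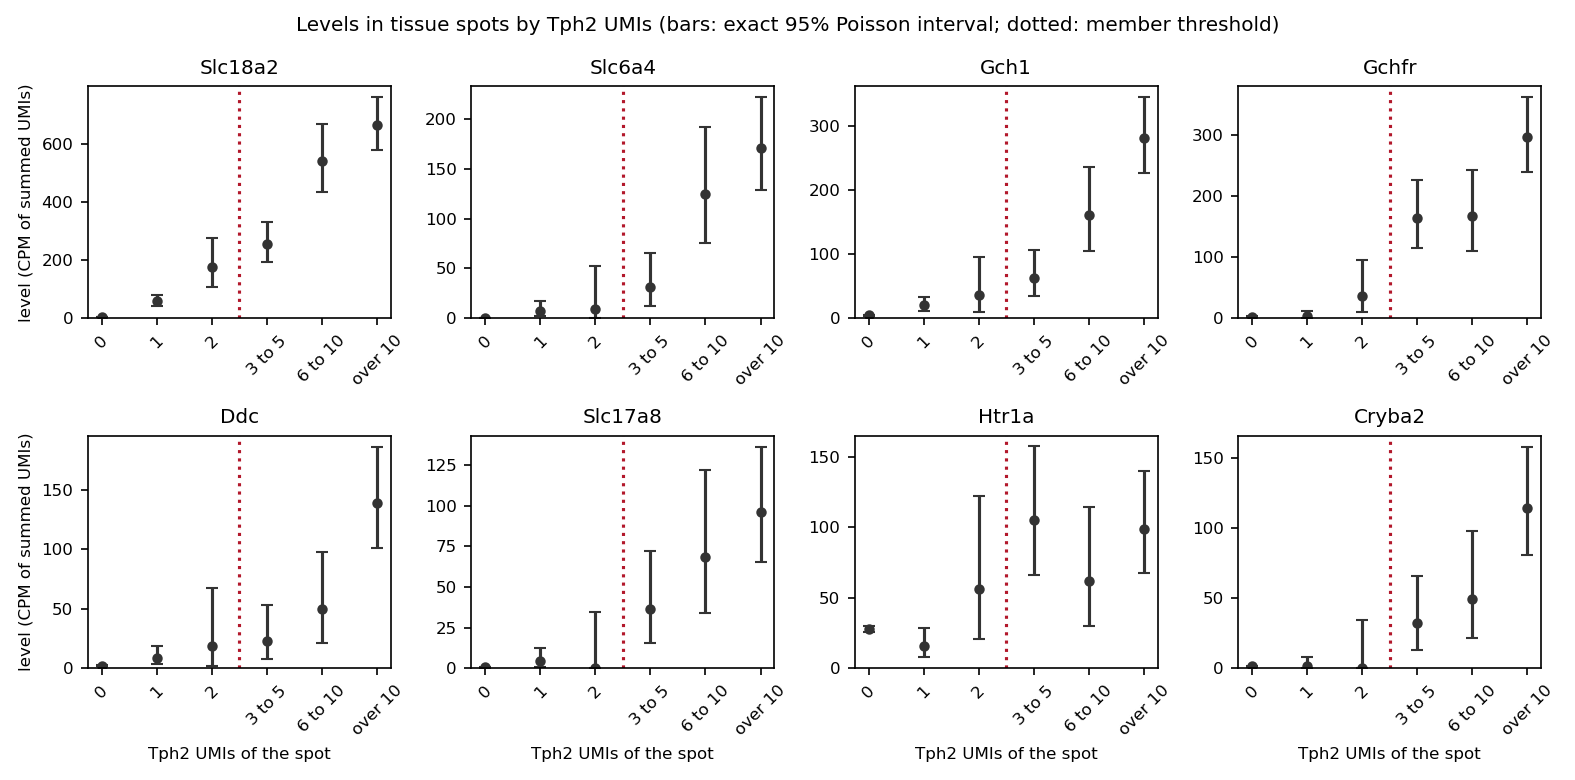
CPM of summed UMIs for 8 genes in tissue spots classed by their Tph2 UMIs, with exact 95% Poisson intervals; the dotted line separates members from other spots. Slc18a2, Slc6a4, Gch1, Gchfr, Ddc, Slc17a8 and Cryba2 are highest in spots with over 10 Tph2 UMIs, while Htr1a shows no such order among members.

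The spot with the most Tph2 lay at row 64, column 54, and held 86 Tph2, 16 Slc18a2, 11 Gchfr and 3 Slc17a8 UMIs of its 9252. The next, at row 61, column 39, held 79 Tph2, 10 Slc18a2 and 4 Gchfr UMIs. The spot at row 62, column 40, had the most Gchfr UMIs of all members, 19, beside 73 of Tph2 and 9 of Slc18a2. At row 63, column 37, by contrast, 46 Tph2 UMIs came with 0 of Slc18a2 and 1 of Gchfr. Spots rich in Tph2 therefore did not all carry the other genes in the same proportion.

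Set against their neighbours, which share their place on the section, 106 of 5302 genes (2.0%) were at least 2-fold higher in members and 77 (1.45%) at least 2-fold lower. Of the 7 genes of serotonin synthesis, transport and breakdown, 4 were tested and all 4 were at least 2-fold higher in members. All 4 reached 50 counts through members alone, so this count is a description and no support. Slc6a4 had 82 UMIs in members and 3 in neighbours (log2 4.56, interval 2.96 to 6.86), Gch1 131 and 8 (log2 3.82, interval 2.80 to 5.06), and Ddc 58 and 4 (log2 3.64, interval 2.21 to 5.57). Slc18a2 had 358 and 31 UMIs (log2 3.31, interval 2.78 to 3.89), and 25 of the 113 neighbours had at least 1. Gchfr was at 3.29 (interval 2.50 to 4.19) and Slc17a8, with 2 UMIs in neighbours, at 4.43 (interval 2.50 to 7.51). Cryba2, at 52 and 1 UMIs, was at 5.48 (interval 2.94 to 10.82). Gata3 was at 1.98 and Gata2 at 1.12, and En1 was at 0.45 with an interval of -0.18 to 1.09. With members and neighbours both restricted to under 1 Slc17a7 UMI per 10000, a restriction chosen after seeing the data, 55 of 2837 genes (1.94%) passed 2-fold upwards and 22 (0.775%) downwards. Under it Gata3 came to 0.50 (interval -0.44 to 1.54) and Gata2 to 0.24 (interval -0.83 to 1.40), while Gch1 was at 4.55 (interval 2.66 to 7.62) and Slc18a2 at 2.84 (interval 2.09 to 3.71). Cryba2 and Slc17a8 then had 38 and 33 UMIs in members and 0 in neighbours, which puts their CPM at least 6.31-fold and 5.48-fold higher in members, both on fewer than 50 counts.

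Lowest in members relative to neighbours were Myoc (3 and 160 UMIs, log2 -5.95), Cartpt (19 and 119 UMIs, log2 -2.86), Gfap (53 and 240 UMIs, log2 -2.39), Slc17a7 (361 and 1149 UMIs, log2 -1.89) and C1ql2 (11 and 51 UMIs, log2 -2.43). Under the same Slc17a7 restriction Cartpt was at 1.32, on 15 and 3 UMIs with an interval of -0.50 to 3.75, so no direction could be read. Because neighbours held more Slc17a7 than members (1898 and 513 CPM), the groups differed in more than serotonin genes, and the part of this in the other differences was not tested. Among the neurofilaments, Nefm was lower in members (771 and 1216 UMIs, log2 -0.87, interval -1.01 to -0.74), as was Nefh (log2 -1.14, interval -1.44 to -0.83).

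The comparison with Th or Slc6a3 spots sets members against positions with some dopamine-neuron RNA, and not against dopamine neurons alone. Those spots lay in rows 19 to 63 and held up to 70.0 Slc17a7 UMIs per 10000 (median 3.59). The 17 members that met the same Th plus Slc6a3 minimum were kept as members. In this comparison, 86 of 4504 genes (1.91%) were at least 2-fold higher in members and 53 (1.18%) at least 2-fold lower. Th and Slc6a3 were left out because they chose the comparators. Slc18a2, used by both cell types, had 358 and 68 UMIs (log2 1.28, interval 0.90 to 1.68). Ddc was likewise at 1.28 (58 and 11 UMIs, interval 0.34 to 2.36). Gch1, which dopamine neurons also need, was at 2.22 (131 and 13 UMIs, interval 1.39 to 3.16), whereas its regulator Gchfr was at 4.20 (159 and 4 UMIs, interval 2.81 to 6.09). Slc6a4 was at 4.24 (82 and 2 UMIs, interval 2.34 to 7.31). Slc17a8 and Cryba2 had 0 UMIs in the Th or Slc6a3 spots, and their CPM was at least 7.68-fold and 7.99-fold higher in members. Vwa5b1 (log2 3.47) and Cited1 (log2 2.56) were also higher in members, while Irs4 was at 0.99 (interval 0.10 to 1.98), short of 2-fold, and Cpne7 at -0.02 (interval -0.38 to 0.35).

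Of 22 neuropeptides and modifiers 7 were tested in this comparison, with 3 at least 2-fold lower in members and 1 higher, Penk (54 and 11 UMIs, log2 1.18, interval 0.23 to 2.26). Npy had 4 and 79 UMIs (log2 -5.42, interval -7.33 to -4.01; -3.26 with spots weighted equally), Cartpt 19 and 115 (log2 -3.71) and Cck 26 and 59 (log2 -2.30, interval -3.02 to -1.61). Of 18 other receptors 6 were tested, with 1 at least 2-fold lower and 1 higher, Adra1b (log2 1.69, interval 0.61 to 2.97). The lower one was Drd2, the dopamine autoreceptor, which had 17 and 38 UMIs (log2 -2.28, interval -3.20 to -1.42). En1 had 57 and 73 UMIs (log2 -1.47, interval -2.0 to -0.95) and Gad2 87 and 93 (log2 -1.21, interval -1.65 to -0.78). Htr1a was higher in members (65 and 7 UMIs, log2 2.10, interval 0.97 to 3.47).

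The members were not uniform. Their median position, row 58 and column 38, was used to split them; both splits were chosen after seeing the data, since only 1 contiguous group had 5 spots or more. The 65 members in rows 58 to 64 held 401488 UMIs and the 58 in rows 45 to 57 held 301830. Of 3299 genes tested, 55 (1.67%) were at least 2-fold higher in rows 58 to 64 and 40 (1.21%) at least 2-fold lower. Slc17a8 had 47 UMIs in rows 58 to 64 and 3 in rows 45 to 57 (log2 3.56, interval 1.92 to 5.89). Pcsk1 had 56 and 6 (log2 2.81, interval 1.60 to 4.32), and Sst, the peptide somatostatin, 279 and 59 (log2 1.83, interval 1.42 to 2.26), 54 of them in the spot at row 62, column 38. The synaptic organizer Cbln4 had 58 and 10 UMIs (log2 2.12), and Ighm 61 and 11 (log2 2.06). Lmx1b, short of 50 counts, had 32 and 5.

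Of the 7 genes of serotonin synthesis, transport and breakdown, 4 were tested between these rows and 1 was at least 2-fold higher in rows 58 to 64, Ddc (44 and 14 UMIs, log2 1.24, interval 0.35 to 2.22). Slc6a4 was at 0.86 (interval 0.15 to 1.61), Slc18a2 at 0.67 (interval 0.34 to 1.00) and Maob at 0.65 with an interval of -0.10 to 1.43, which takes in 0. Of the 8 cofactor genes 4 were tested and 1 was at least 2-fold higher, Gchfr (122 and 37 UMIs, log2 1.31, interval 0.77 to 1.88). Gch1 was at 0.67 (interval 0.13 to 1.24), Spr at -0.53 (interval -1.22 to 0.16) and Qdpr at -0.75 (interval -1.04 to -0.46). The members were selected on Tph2, which had 1050 and 428 UMIs in these sets of rows. The autoreceptor gene Htr1a was at 1.20 (49 and 16 UMIs, interval 0.36 to 2.12). Lower in rows 58 to 64 were the haemoglobin genes Hbb-bs (140 and 384 UMIs, log2 -1.87) and Hba-a2 (log2 -1.48), Ptgds (log2 -1.38), Gfap (log2 -2.03) and Mbp, myelin basic protein (2759 and 4113 UMIs, log2 -0.99). Over the 11 oligodendrocyte markers the summed level was 14090 CPM in rows 58 to 64 and 25634 CPM in rows 45 to 57. Of the 12 astrocyte markers 11 were tested and Gfap alone was 2-fold lower, with a median of -0.21 over the 11. Myelin and haemoglobin RNA were thus lower in the same rows in which Gchfr and Ddc were higher, and their part in those differences was not tested.

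**Figure D4:**
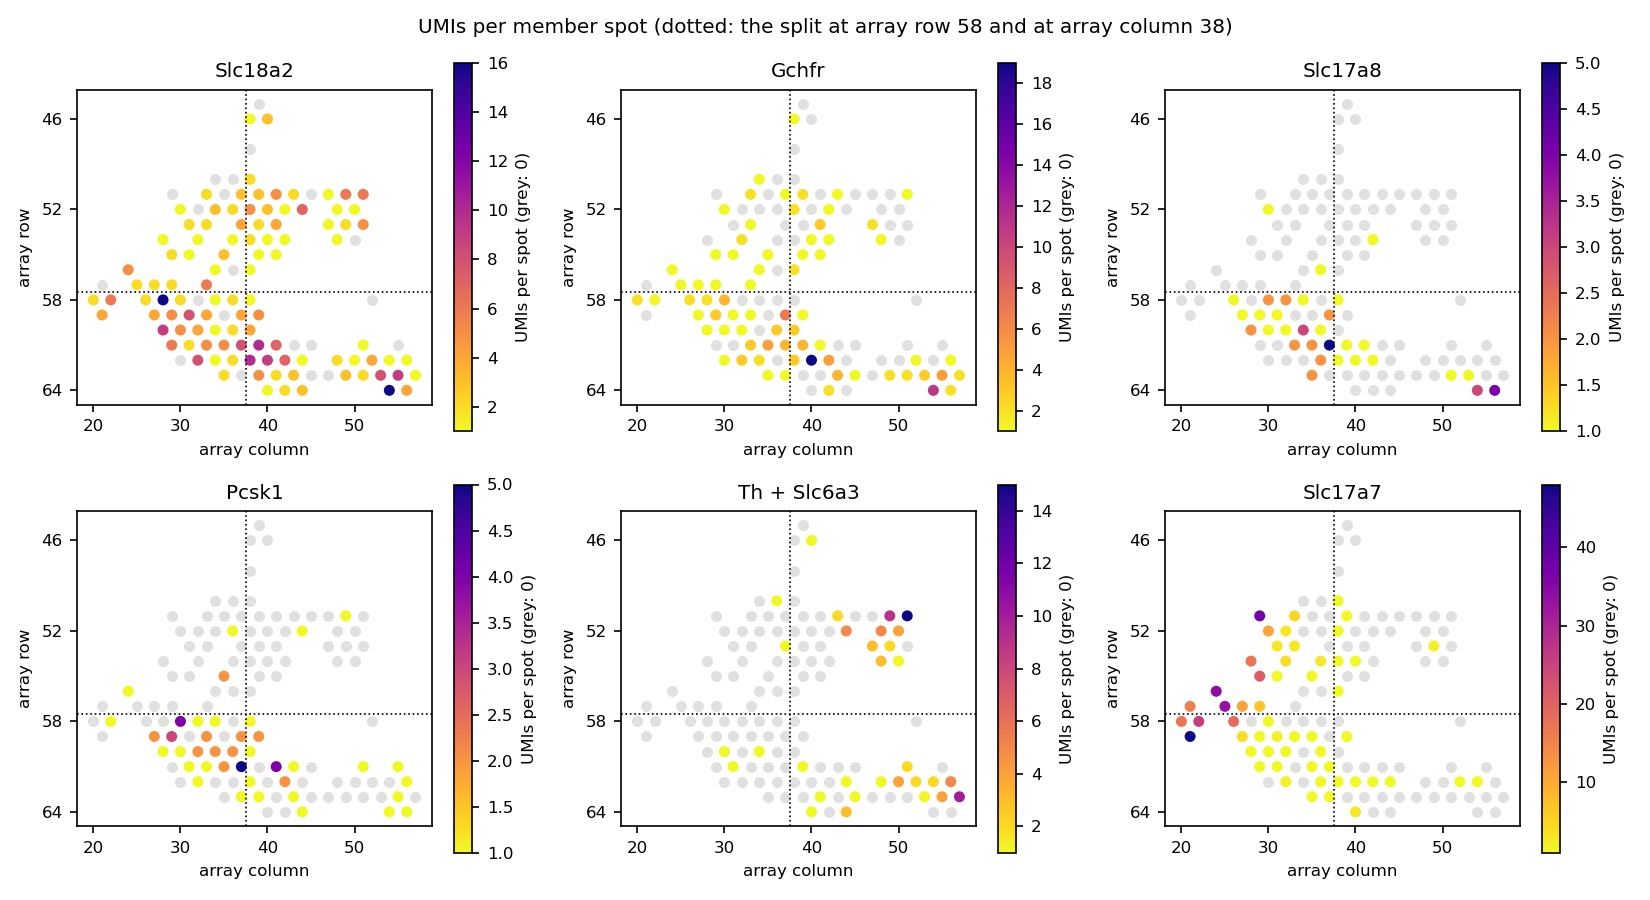
UMIs of 6 genes in each of the 123 members, drawn at their array row and column; grey spots have 0. Slc17a8 and Pcsk1 lie mostly in rows 58 to 64, Th plus Slc6a3 mostly in columns from 38, and the highest Slc17a7 counts in columns 20 to 33.

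Across columns the members differed in genes of other neurons. Between the 65 members in columns 38 to 57 and the 58 in columns 20 to 37, 22 of 3299 genes (0.667%) were at least 2-fold higher in the former and 41 (1.24%) at least 2-fold lower. Slc17a7 had 18 and 343 UMIs (log2 -4.20, interval -4.97 to -3.51). The 15 members with at least 10 Slc17a7 UMIs per 10000 lay in columns 20 to 33 and held 305 of the 361 Slc17a7 UMIs of the members. Cabp7 (log2 -2.06), Caln1 (log2 -2.11), the calcium buffer Pvalb (log2 -1.92) and the hindbrain homeobox gene Irx2 (log2 -2.36) were lower in the same direction. Dlk1, which midbrain dopamine neurons express, had 84 and 15 UMIs (log2 2.54, interval 1.74 to 3.44), with Th at 43 and 2 and Slc6a3 at 46 and 3. All 17 members with 2 or more Th plus Slc6a3 UMIs lay in columns 43 to 57. Hba-a2 (log2 1.28), Hbb-bs (log2 1.15), Ntn1, an axon guidance ligand (log2 1.76), and the collagen Col4a2 (log2 1.44) were higher there too.

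By columns, 4 genes of the serotonin list and 4 of the cofactor list were tested, and 1 of each was at least 2-fold higher in columns 38 to 57. These were Gch1 (91 and 40 UMIs, log2 1.24, interval 0.69 to 1.82) and Maob (log2 1.03, interval 0.29 to 1.80). Most Th and Slc6a3 UMIs of the members also lay in those columns. Tph2, on which the members were selected, had 927 UMIs in columns 38 to 57 and 551 in columns 20 to 37. The part of either in these ratios was not tested. Slc18a2 was at 0.27 with an interval of -0.04 to 0.57. Htr1a (22 and 43 UMIs, log2 -0.91, interval -1.72 to -0.14) and Slc17a8 (16 and 34 UMIs, log2 -1.03, interval -1.99 to -0.14) lay the other way. En1 was at 1.54 (42 and 15 UMIs, interval 0.66 to 2.50). Pnoc, the nociceptin precursor, was at 1.45 (50 and 19 UMIs, interval 0.66 to 2.30).

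**Figure D5:**
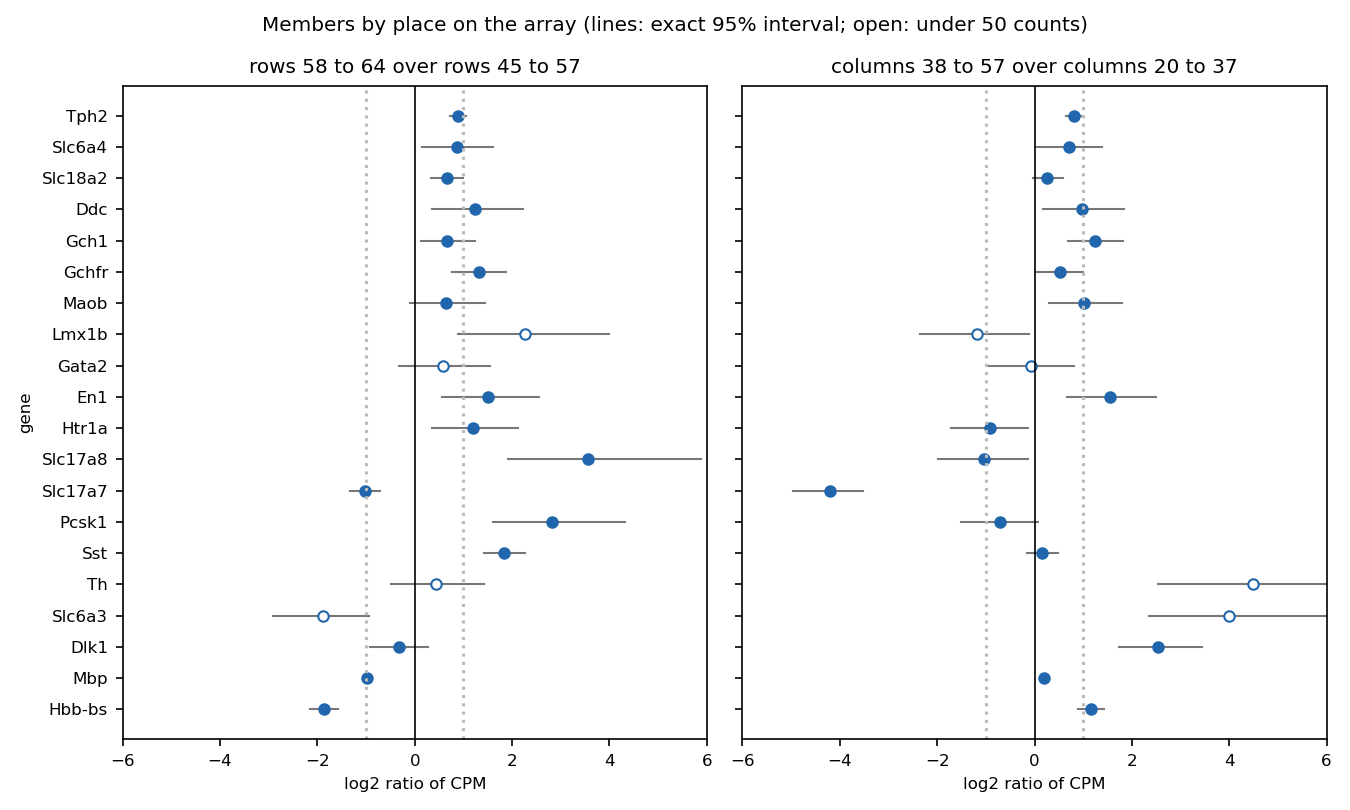
Log2 ratio of CPM within the members for 20 genes, by array row (left) and array column (right), with exact 95% intervals; dotted lines mark 2-fold and open points fewer than 50 counts. Slc17a8 and Pcsk1 stand out by row, and Slc17a7, Th, Slc6a3 and Dlk1 by column.

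Markers of other cell types were counted in the members. All 11 oligodendrocyte markers were tested against low-Slc17a7 spots and 0 differed 2-fold; the summed level was 19044 CPM in members and 17780 in low-Slc17a7 spots. Of 12 astrocyte markers only Gfap was 2-fold lower (summed 7432 and 8680 CPM). Of the 8 microglial markers tested, of 12 listed, 1 was 2-fold lower, Trem2 (10 and 62 UMIs). Meningeal fibroblast markers were summed at 96.7 CPM in members and 470 in low-Slc17a7 spots. Among other monoamine cells, the noradrenergic markers Dbh and Phox2a had 1 UMI each and Slc6a2 had 0, and the histamine enzyme Hdc had 0. Of 7 ependymal markers, Ccdc153, Tmem212 and Dynlrb2 had 0 UMIs, Foxj1 and Mia 2 each, and Rarres2 and Cfap126 3 each. The dopamine markers Th (45 UMIs) and Slc6a3 (49 UMIs) were present in 31 members, with Lmx1a at 7 UMIs and Pitx3 at 1. Aldh1a1 had 108 UMIs, Dlk1 99, Ret 31 and Nr4a2 4. Members under 1 Slc17a7 UMI per 10000 were higher in Slc6a3 (log2 2.36, interval 1.67 to 3.06) than low-Slc17a7 spots. The same held for Th (log2 2.33, interval 1.63 to 3.05). Against neighbours under the same restriction, Slc6a3 was at 0.33 and Th at 0.18, with intervals that take in 0. The markers of the label, Slc18a2, Gch1 and Gchfr beside Tph2, were chosen with earlier results of these data known. Their higher levels in these spots than in each of the 3 comparators are thus a description and no support for the label. Dopamine markers lay in part of the same stretch.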

How the data were processed

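Ligation products from a mouse probe set were counted per spot; per the file headers the authors used Space Ranger 3.1.1, and the submitters' processing notes name mm10. The deposited values are raw UMI counts, not normalised. The matrices filed under both samples were identical and were used once, with the wild-type position list. The gene list held 19465 genes and the matrix 2722 spots and 21695663 UMIs.

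Counts were summed over spots and scaled to CPM. Ratios carry exact conditional 95% intervals (scipy 1.17.1), shares exact binomial and levels exact Poisson ones; all cover counting error only. A sum at 0 was set to 3 counts. Genes with 50 counts over both sums entered the counts, without those the rules used. The procedure was tested on simulated data. Named were the 15 highest genes by the lower bound and the 10 lowest by the upper bound against low-Slc17a7 spots, 5 and 5 in the other comparisons, and genes of the lists. Members, lists and markers were chosen with earlier results of these data known. Alternatives included edgeR 4.0.16 TMM scaling, other minimums, other Tph2 thresholds, equal spot weights and depth-matched comparators. One gene of the lists is not reported here.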

Additional observations from a re-analysis of the deposited data

Results flagged for a closer look

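Outside the tissue positions of the wild-type list, 78 Tph2 UMIs were found on 235 spots (112 CPM), a signal in positions that no comparison above uses. Of these spots 9 had at least 3 Tph2 UMIs, 8 of the 9 lay within 2 grid steps of a member, and all 9 were marked as tissue in the list filed under G2-3. The same off-tissue spots held 15 Slc18a2 UMIs. No test of a cause was made.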

How the results depend on the processing

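The counts of genes past 2-fold moved with the minimum count. With 20 counts they were 165 higher and 447 lower against low-Slc17a7 spots, 292 and 252 against neighbours, and 308 and 225 against Th or Slc6a3 spots. With 100 counts they were 31 and 51, 42 and 34, and 16 and 16. Fewer genes are tested at the higher minimum, and shares of the genes tested are not given for these counts. With members under 1 Slc17a7 UMI per 10000, 234 genes were lower than in low-Slc17a7 spots (3.45% of 6784). With comparators from the same stretch of the array, 109 were higher and 37 lower. Those comparators held 322784 UMIs against 1570492 in all low-Slc17a7 spots, so a different set of genes was tested. Shares of the genes tested are not given, and these counts cannot be set against the main ones. Among named and listed genes at least 2-fold different against all low-Slc17a7 spots, Cartpt (1.12), Cck (0.41), En1 (-0.29), Nrgn (0.014) and Tac1 (0.88) changed sign, with intervals that take in 0. Against neighbours, 70 genes were higher with members of at least 2 Tph2 UMIs, also without a share of those tested. With both groups under 1 Slc17a7 UMI per 10000 there were 55 higher (1.94% of 2837) and 22 lower (0.775%). Cartpt then changed sign (1.32), again with an interval that takes in 0. Against Th or Slc6a3 spots the median of serotonin receptors reversed at 20 counts (-0.37), and that of serotonergic transcription factors at 100 counts (-1.47) and with members of at least 5 Tph2 UMIs (-0.26). The value of -1.47 was that of En1 in this comparison, and a minimum sets which genes enter a median. Beyond this, the cause of these changes was not tested. Thinning to 2000 UMIs took the share of members with Slc18a2 from 82.9% to 53.3%. TMM scaling shifted the log2 ratios by 0.02, -0.02 and 0.06 in the 3 comparisons. In all, 2181 of the values for single genes under an alternative lay within the interval of the main value, 135 lay outside it and 6 reversed. This total is no measure of stability, because a minimum count leaves the ratio of a gene unchanged. With same-stretch comparators, 37 values lay within the interval, 49 outside it and 5 reversed. With members and neighbours both under 1 Slc17a7 UMI per 10000, the numbers were 35, 33 and 1. Reversed means that a ratio of at least 2-fold in the main comparison took the other sign. Sign changes of smaller ratios were not counted.

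The same-stretch comparators, the restrictions on Slc17a7 and the splits by row and column were chosen after seeing the data. Depth-matched comparators were not run for neighbours or Th or Slc6a3 spots, which are fewer than the members, and the comparison of contiguous groups was not run because 1 group had 5 spots or more. No paired analysis was possible because the data are 1 library and the labels carry no replicate numbers.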
